A study of Rattus norvegicus with 23 samples.

Results

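Primary rat oligodendroglia were compared under differentiating and proliferating conditions by RNA sequencing, in 4 libraries each, out of 23 libraries in the series. The members are the 8 libraries whose titles name primary rat oligodendroglia, and all genes listed in their count files were used. The cells came from wild-type rat brain, were grown in mixed glial culture and were separated from it by shaking. Differentiating cells had spent 3 days in SATO medium with a high level of the thyroid hormones T3 and T4 and with ciliary neurotrophic factor (CNTF). Proliferating cells were kept in basal medium with the mitogens bFGF and PDGF-AA. The groups therefore differ in stage, medium, mitogens, thyroid hormone and CNTF at once, and these cannot be told apart. The remaining 15 libraries came from CG4, a rat oligodendroglial cell line, and 7 of them are used in a comparison of responses near the end.

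Oligodendrocytes are the cells that wrap axons of the central nervous system in myelin, a stack of lipid-rich membrane held together by a small set of abundant proteins. They arise from progenitors that divide in response to PDGF and FGF. When a progenitor leaves the cell cycle, it passes through a committed, premyelinating stage, and the transcription factors Sox10, Olig2 and Myrf then drive the genes of myelin. Making myelin also calls for much cholesterol and sphingolipid, which oligodendrocytes synthesise themselves.

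The 4 differentiating libraries held 22624183 to 36301186 counts and the 4 proliferating libraries 20063345 to 33130502. The transcript of Mbp alone took 4.13% to 4.52% of all counts in differentiating libraries. The lineage factors Sox10 and Olig2 were counted in every library, and markers of other glia were present too. The 7 tested of 20 listed microglia and macrophage markers summed to 55.7 to 73.2 CPM in differentiating libraries, against 1351 to 1383 CPM in proliferating libraries. The corresponding sum for astrocyte markers was 2091 to 3574 CPM in differentiating libraries, against 390.2 to 413 CPM in proliferating libraries. Differentiating libraries 1 with 2 and 3 with 4 form close pairs that differ from each other more than any proliferating libraries do. Levels are CPM, counts scaled to a common library total after TMM normalisation, changes are log2 fold changes of differentiating over proliferating cells with their SE, and adjusted p-values come from edgeR's quasi-likelihood test.

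Of 12310 genes tested, 10439 passed an adjusted p of 0.05, which is 84.8%. Of all tested genes 41.5% were higher and 43.3% were lower in differentiating cells, and the median log2 fold change was -0.02. At least 2-fold changes among the called genes made up 18.1% of tested genes on the higher side and 20.3% on the lower side. With so many genes called, a single call says little about a gene list, and the counts of list members below are read against these shares. The groups did not overlap for 81.4% of tested genes. Scaling to library totals alone moved the median of all genes by -0.50, so that 27.8% of called genes were higher there, against 49.0% with TMM, and changes smaller than about that shift can turn direction.

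**Figure D1:**
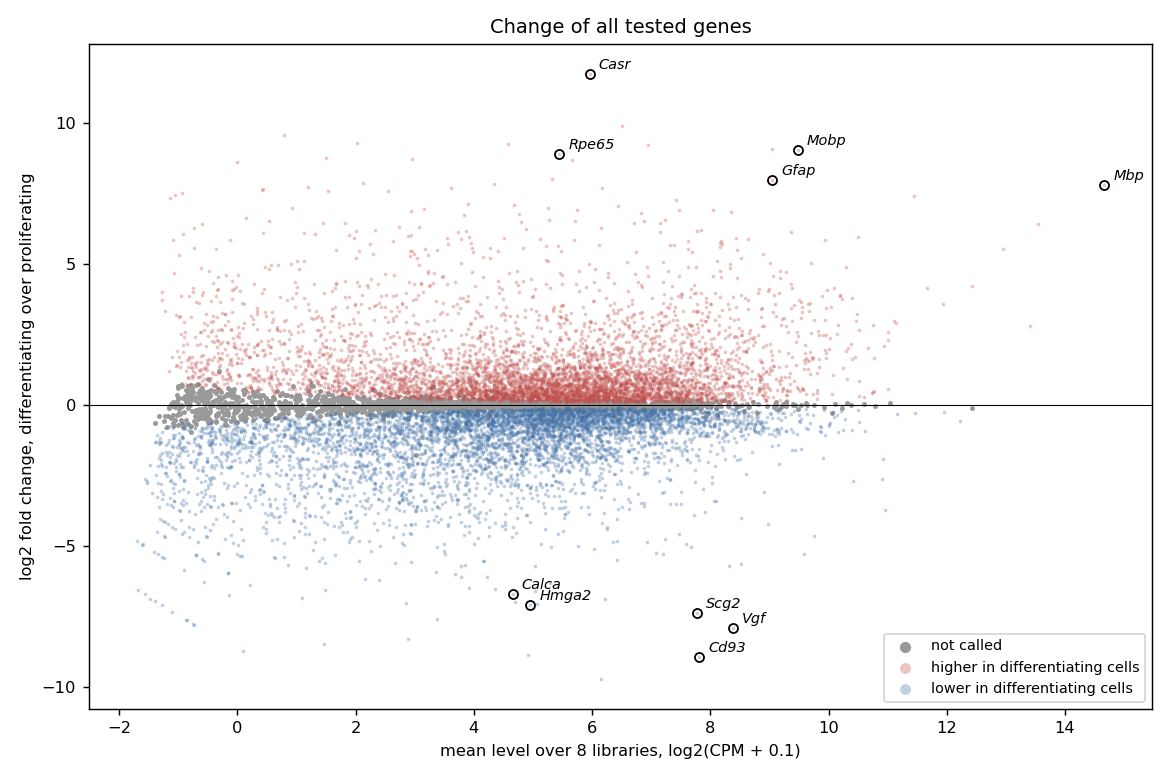
Log2 fold change of differentiating over proliferating cells (vertical axis) against mean level over the 8 libraries as log2(CPM + 0.1) (horizontal axis) for 12310 tested genes. Called genes lie on both sides, and the circled genes reach from 11.72 for Casr to -8.94 for Cd93.

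Genes of the myelin sheath were much higher in differentiating cells. Of 27 listed myelin proteins 24 had a usable symbol and were tested, 23 rose, 20 of them at least 2-fold, and 1 fell. Their median log2 fold change was 4.40, and their summed level was 110869 to 124628 CPM in differentiating libraries, against 3253 to 3360.2 CPM in proliferating libraries. In bulk RNA a change in the number of cells of a type and a change in RNA per cell cannot be told apart.

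Mbp (ENSRNOG00000016516), which encodes the myelin basic protein that compacts the sheath, had 55597, 54197, 47865 and 48494 CPM in differentiating libraries 1 to 4, against 225, 223, 251 and 229 CPM in proliferating libraries 1 to 4. Every differentiating library lay far above every proliferating one, at a log2 fold change of 7.80 ± 0.08, adjusted p = 1.61e-13. Mobp, a further protein of the compact sheath, had 1344, 1283, 1525 and 1545 CPM in differentiating libraries 1 to 4, against 2.71, 2.91, 3.24 and 2.195 CPM in proliferating libraries 1 to 4. It was close to the floor in proliferating cells, and its log2 fold change was 9.03 ± 0.12, adjusted p = 3.69e-13.

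Mag, an adhesion molecule of the innermost myelin layer that faces the axon, had 5043, 4496, 6353 and 6244 CPM in differentiating libraries 1 to 4, against 33.3, 30.3, 33.6 and 32.6 CPM in proliferating libraries 1 to 4. Differentiating libraries 3 and 4 stood above 1 and 2, with no overlap with proliferating cells (log2 fold change 7.41 ± 0.13, adjusted p = 2.23e-12). Mog, a protein of the outermost myelin layer and one of the last to appear, had 211, 199, 228 and 233 CPM in differentiating libraries 1 to 4, against 11.3, 12.7, 13.7 and 11.2 CPM in proliferating libraries 1 to 4. It was low but counted in proliferating cells, and its log2 fold change was 4.17 ± 0.08, adjusted p = 3.04e-12. Cnp, a cyclic nucleotide phosphodiesterase of the non-compact myelin, had 10458 ± 919 CPM in differentiating and 559 ± 11.7 CPM in proliferating libraries (SD, n = 4 each) and rose by 4.23 ± 0.07 on the log2 scale.

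Gjc3, a connexin of glial cells, was among the largest rises. It had 1135, 1184, 948 and 936 CPM in differentiating libraries 1 to 4, against 1.87, 1.77, 2.14 and 2.07 CPM in proliferating libraries 1 to 4, with no overlap between the groups (log2 fold change 9.06 ± 0.12). Cldn11, which makes the tight junctions between myelin layers, averaged 1623 ± 211 CPM in differentiating and 49.8 ± 2.81 CPM in proliferating libraries and rose by 5.03 ± 0.10. Opalin, a membrane protein of late oligodendrocytes, had 9.23 to 9.99 CPM in differentiating libraries, against 0.0334 to 0.204 CPM in proliferating libraries. The groups did not overlap, at a log2 fold change of 6.18 ± 0.21. The 1 tested member that fell was Cd82, a tetraspanin, at 13.7 ± 1.33 CPM in differentiating and 45.2 ± 1.91 CPM in proliferating libraries (-1.72 ± 0.07).

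**Figure D2:**
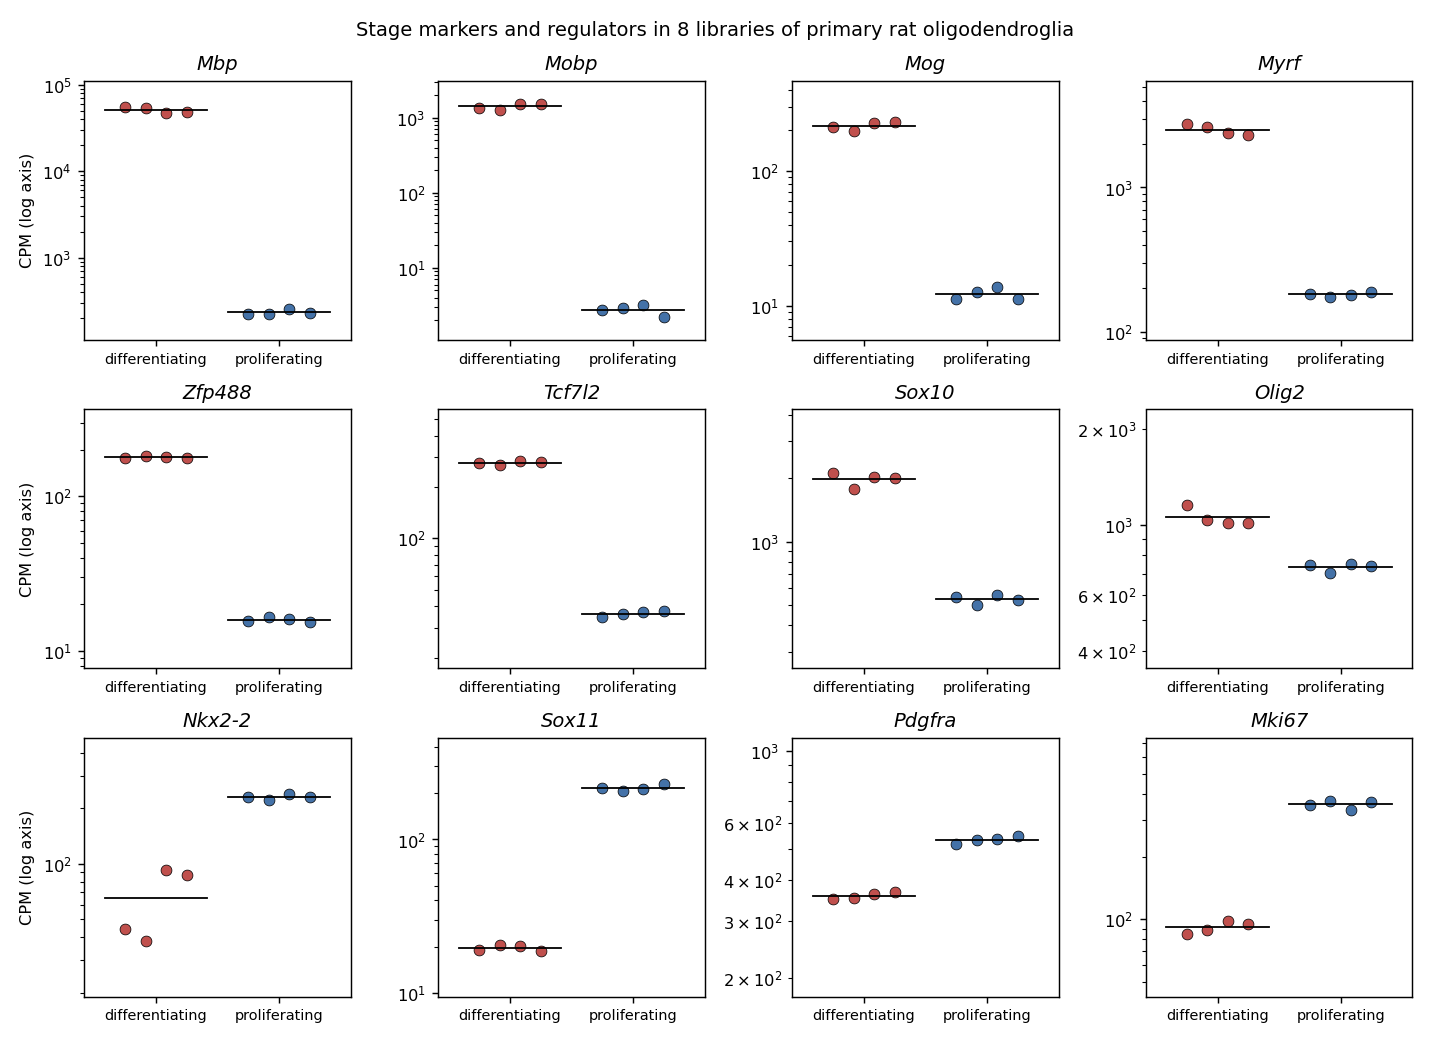
CPM on log axes in each of the 4 differentiating and 4 proliferating libraries for 12 genes, with the group mean as a bar. Mbp, Mobp, Mog, Myrf, Zfp488, Tcf7l2, Sox10 and Olig2 are higher in every differentiating library (Olig2 with TMM scaling, not with library totals alone), and Nkx2-2, Sox11, Pdgfra and Mki67 are lower.

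Enzymes and other products of mature oligodendrocytes followed the same direction. Of 33 tested members 29 rose and 3 fell, with a median of 2.86. Ugt8, which adds galactose to ceramide to make the myelin lipid galactocerebroside, had 2517, 2859, 2176 and 2181 CPM in differentiating libraries 1 to 4, against 77.6, 88.7, 83.04 and 80.9 CPM in proliferating libraries 1 to 4. All 4 differentiating libraries were far above the proliferating ones, at a log2 fold change of 4.88 ± 0.10. Gal3st1, which adds the sulfate of sulfatide, had 319, 280.1, 320.5 and 325 CPM in differentiating libraries 1 to 4, against 54.3, 50.5, 57.4 and 54.1 CPM in proliferating libraries 1 to 4, without overlap (log2 fold change 2.52 ± 0.06, adjusted p = 1.66e-11). Both enzymes act on the galactolipids of myelin. Fa2h, the hydroxylase that gives myelin sphingolipids their 2-hydroxy fatty acids, averaged 282 ± 14.8 CPM in differentiating and 13.7 ± 1.03 CPM in proliferating libraries (4.37 ± 0.06). Aspa, which splits N-acetylaspartate and so supplies acetate, averaged 209 ± 18.5 CPM in differentiating and 4.94 ± 0.459 CPM in proliferating libraries (5.41 ± 0.09). The members that fell were Il33, a nuclear cytokine, at -2.46 ± 0.11, Anln, a scaffold of cell division and of myelin, at -2.08 ± 0.05, and Tf, the iron carrier transferrin, at -0.21 ± 0.04.

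The committed, premyelinating stage was also marked. Of 18 tested members 17 rose, all at least 2-fold, none fell, and the median was 3.21. Enpp6, a choline phosphodiesterase that marks newly formed oligodendrocytes, had 502, 525, 352 and 351 CPM in differentiating libraries 1 to 4, against 5.80, 5.98, 5.72 and 6.53 CPM in proliferating libraries 1 to 4. Libraries 1 and 2 stood above 3 and 4, and all 4 stood far above proliferating cells (log2 fold change 6.16 ± 0.17, adjusted p = 4.64e-11). Bcas1, a marker of the same stage, had 2908, 2888, 4009.6 and 3917 CPM in differentiating libraries 1 to 4, against 685, 710.1, 698 and 692 CPM in proliferating libraries 1 to 4. Here libraries 3 and 4 were the higher pair, at a log2 fold change of 2.30 ± 0.11. Tcf7l2, a Wnt effector that also acts in oligodendrocyte maturation, averaged 278 ± 7.43 CPM in differentiating and 36.2 ± 1.35 CPM in proliferating libraries (2.94 ± 0.04), and Sirt2, a tubulin deacetylase, averaged 6177 ± 431 CPM in differentiating and 352 ± 14.9 CPM in proliferating libraries (4.13 ± 0.06). Of the stage markers Gpr17 has no usable symbol in the files and Neu4 did not pass the test (-0.45, adjusted p = 0.195), though it did with library totals alone (-0.95).

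Transcription factors of the lineage moved in both directions. Of 33 tested factors 19 rose and 11 fell, with a median of 0.43. With library totals alone 12 rose, 15 fell and the median was -0.07. Myrf, the membrane-anchored factor required for myelin gene expression, had 2741, 2613, 2389 and 2307 CPM in differentiating libraries 1 to 4, against 183, 175, 179.7 and 188 CPM in proliferating libraries 1 to 4. The groups were far apart, at a log2 fold change of 3.79 ± 0.06. Sox10, which is needed for terminal differentiation, had 2124, 1783, 2034 and 2011 CPM in differentiating libraries 1 to 4, against 546, 499.9, 558 and 527 CPM in proliferating libraries 1 to 4. It was high in proliferating cells already, and its log2 fold change was 1.90 ± 0.06, adjusted p = 1.56e-10.

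Zfp488, a zinc finger repressor that promotes oligodendrocyte differentiation, had 177, 183, 181 and 178 CPM in differentiating libraries 1 to 4, against 15.5, 16.5, 15.9 and 15.4 CPM in proliferating libraries 1 to 4. Its spread within each group was small, at a log2 fold change of 3.50 ± 0.04, adjusted p = 1.9e-13. Nkx2-2, a homeodomain factor of progenitors and early differentiation, had 44.6, 38.1, 92.98 and 87.1 CPM in differentiating libraries 1 to 4, against 230.0, 221, 240.4 and 230.4 CPM in proliferating libraries 1 to 4. It was lower in every differentiating library, and libraries 1 and 2 stood below 3 and 4 (log2 fold change -1.82 ± 0.25, adjusted p = 3.56e-05). Olig2 averaged 1053 ± 68.1 CPM in differentiating and 733 ± 20.5 CPM in proliferating libraries (0.52 ± 0.05) and Olig1 averaged 1939 ± 111 CPM in differentiating and 1458 ± 70.3 CPM in proliferating libraries (0.41 ± 0.05). These small rises depend on the scaling, since with library totals alone Olig2 stood at 0.02 and Olig1 at -0.09.

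The other risers included St18, a zinc finger relative of Myt1, at 5.15 ± 0.10, and Hdac11, a class IV deacetylase, at 6.45 ± 0.09. Among the factors that fell, Sox11, a SoxC factor of immature neural cells, had 19.04, 20.6, 20.1 and 18.8 CPM in differentiating libraries 1 to 4, against 216, 207, 214 and 229.6 CPM in proliferating libraries 1 to 4. The groups were wide apart with little spread in either (log2 fold change -3.46 ± 0.05, adjusted p = 5.73e-13). Myt1, a zinc finger factor of progenitors, averaged 44.1 ± 3.06 CPM in differentiating and 263 ± 8.45 CPM in proliferating libraries (-2.58 ± 0.05).

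Progenitor markers moved in both directions. Of 26 tested members 16 were higher and 7 lower in differentiating cells, with a median of 0.46 (-0.04 with library totals alone). Pdgfra, the PDGF receptor that defines the progenitor, had 351, 353, 362 and 367 CPM in differentiating libraries 1 to 4, against 516, 533, 536 and 546 CPM in proliferating libraries 1 to 4. The groups did not overlap, but the fall was modest, at a log2 fold change of -0.57 ± 0.04, adjusted p = 5.81e-08. Cspg4, the NG2 proteoglycan, had 108, 98.6, 108 and 101 CPM in differentiating libraries 1 to 4, against 95.2, 89.8, 92.5 and 93.2 CPM in proliferating libraries 1 to 4. Its log2 fold change of 0.16 ± 0.04 turned to -0.34 with library totals alone.

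Ptprz1, a receptor phosphatase of progenitors, averaged 794 ± 50.7 CPM in differentiating and 789.8 ± 27.6 CPM in proliferating libraries. Its log2 fold change was 0.01 ± 0.05, which did not pass the test (adjusted p = 0.894), whereas with library totals alone it was -0.49 and passed. Tnr, which encodes the matrix protein tenascin R, had 794, 911, 1045 and 1035 CPM in differentiating libraries 1 to 4, against 59.6, 57.05, 51.3 and 60.4 CPM in proliferating libraries 1 to 4, with no overlap between the groups (log2 fold change 4.05 ± 0.10, adjusted p = 1.85e-11). Bcan, the proteoglycan brevican, averaged 1182 ± 94.1 CPM in differentiating and 151 ± 5.18 CPM in proliferating libraries (2.97 ± 0.06), and Gpr37l1, an orphan receptor of glia, averaged 582 ± 33.8 CPM in differentiating and 55.2 ± 2.30 CPM in proliferating libraries (3.40 ± 0.06). The largest fall on the list was Tmem100, a small membrane protein, at 18.3 ± 2.61 CPM in differentiating and 217 ± 12.1 CPM in proliferating libraries (-3.58 ± 0.09).

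Cell cycle genes fell together. All 39 tested DNA replication genes were lower, 36 of them at least 2-fold, with a median of -1.85. All 38 tested genes of mitosis and G2 phase were lower, 36 of them at least 2-fold, with a median of -1.77. Their summed levels were 1212 to 1369 CPM in differentiating libraries, against 4144 to 4328 CPM in proliferating libraries, a ratio of 0.306. Mki67, the proliferation antigen Ki-67, had 84.7, 88.96, 98.5 and 95.2 CPM in differentiating libraries 1 to 4, against 354, 371, 336 and 366 CPM in proliferating libraries 1 to 4. Every differentiating library was below every proliferating one, at a log2 fold change of -1.96 ± 0.06, adjusted p = 6.73e-11.

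Mcm5, a subunit of the replicative helicase, had 54.7, 51.03, 53.3 and 54.03 CPM in differentiating libraries 1 to 4, against 267, 248, 269.9 and 266 CPM in proliferating libraries 1 to 4. The groups lay far apart with a small spread (log2 fold change -2.30 ± 0.04, adjusted p = 3.23e-12). Mcm3, of the same helicase, averaged 29.9 ± 1.70 CPM in differentiating and 149 ± 5.67 CPM in proliferating libraries (-2.31 ± 0.05), and Cdt1, which loads it, averaged 14.9 ± 0.550 CPM in differentiating and 73.8 ± 4.30 CPM in proliferating libraries (-2.31 ± 0.05). Cdc6, a loader too, showed the largest fall of the replication list at -2.63 ± 0.09. Kif23, a kinesin of cytokinesis, had 13.4, 12.3, 12.1 and 9.82 CPM in differentiating libraries 1 to 4, against 67.02, 69.3, 68.4 and 68.8 CPM in proliferating libraries 1 to 4, the largest fall of the mitosis list (log2 fold change -2.51 ± 0.07, adjusted p = 8.72e-11). Bub1, a kinase of the spindle checkpoint, averaged 18.9 ± 1.05 CPM in differentiating and 82.5 ± 2.95 CPM in proliferating libraries (-2.12 ± 0.05), and Cenpf, a kinetochore protein, averaged 35.04 ± 3.85 CPM in differentiating and 147 ± 9.75 CPM in proliferating libraries (-2.07 ± 0.08).

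The promoters of these genes carry short motifs known from cell cycle control. Windows of 300 bases, 250 before and 50 after the start, were matched by symbol in RefSeq on GRCr8, whereas the counts were made on rn6. The CHR element TTTGAA is bound by the DREAM and MuvB complexes, which act on G2 and M phase genes. It occurred on either strand in 23 of 32 windows of called mitosis genes (71.9%), against 10.9% of the windows of all tested genes and 18.1% of 27457 promoters. The CCAAT box occurred in 24 of these 32 windows (75.0%), against 37.7% of all promoters. In the windows of called replication genes its share was 63.3%. The E2F motif TTTGGCGC or TTTCCCGC is bound by factors that act on S phase genes. It occurred in 11 of 30 windows of called replication genes (36.7%) and in 0 of the 32 mitosis windows, against 3.03% of the windows of all tested genes and 1.53% of all promoters. Neither the CHR nor the E2F letters occurred in the 16 windows of called myelin genes, which are too few to set against these shares. Some copies of these motifs overlap other motifs, and a match is a description of the letters and not a bound site.

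Both TTTGAA and CCAAT occurred in 19 mitosis windows, and an E2F motif in 11 replication windows. The windows of the 2 genes with the largest falls in each set are given. Capitals mark TTTGAA and CCAAT in the mitosis windows, on either strand. In the replication windows they mark the E2F letters only, and copies of CCAAT there are left in lower case. The windows are Kif23 (chr8:71320535-71320834, minus strand), Cenpf (chr13:103760837-103761136, minus strand), Mcm3 (chr9:30733697-30733996, minus strand) and Cdt1 (chr19:67528999-67529298, plus strand), each 5′ to 3′ along the gene.
Kif23: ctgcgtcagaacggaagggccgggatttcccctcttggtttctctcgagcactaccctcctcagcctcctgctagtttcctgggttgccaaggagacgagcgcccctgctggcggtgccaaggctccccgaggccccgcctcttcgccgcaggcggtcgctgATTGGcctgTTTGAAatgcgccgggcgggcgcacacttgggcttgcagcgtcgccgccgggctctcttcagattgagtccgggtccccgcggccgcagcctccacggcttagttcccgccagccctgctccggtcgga
Cenpf: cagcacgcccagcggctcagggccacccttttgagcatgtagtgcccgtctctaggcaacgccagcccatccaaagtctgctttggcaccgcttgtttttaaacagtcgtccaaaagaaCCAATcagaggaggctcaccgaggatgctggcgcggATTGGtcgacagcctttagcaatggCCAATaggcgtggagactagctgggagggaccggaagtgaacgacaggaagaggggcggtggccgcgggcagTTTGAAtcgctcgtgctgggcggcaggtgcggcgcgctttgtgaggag
Mcm3: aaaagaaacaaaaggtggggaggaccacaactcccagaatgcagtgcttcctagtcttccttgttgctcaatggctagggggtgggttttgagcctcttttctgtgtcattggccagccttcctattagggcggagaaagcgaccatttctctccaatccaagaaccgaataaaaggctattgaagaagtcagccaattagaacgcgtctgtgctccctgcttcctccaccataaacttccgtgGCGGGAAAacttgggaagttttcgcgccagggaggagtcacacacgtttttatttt
Cdt1: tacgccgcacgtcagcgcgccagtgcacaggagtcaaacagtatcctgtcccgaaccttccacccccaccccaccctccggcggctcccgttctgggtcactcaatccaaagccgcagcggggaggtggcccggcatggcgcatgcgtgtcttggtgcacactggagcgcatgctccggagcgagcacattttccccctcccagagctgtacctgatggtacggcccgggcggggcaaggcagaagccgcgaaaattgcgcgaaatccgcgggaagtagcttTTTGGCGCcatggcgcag
In Kif23 the CCAAT letters on the opposite strand begin 88 bases and TTTGAA 79 bases before the start. Cenpf holds CCAAT letters 3 times, at 70, 95 and 131 bases before the start, and TTTGAA at its start. The E2F letters begin 6 bases before the start of Mcm3 and 32 bases after that of Cdt1.

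Regulators of G1 phase were mixed. Of 20 tested members 5 rose and 15 fell, with a median of -1.13, and with library totals alone 3 rose. Ccnd1, the mitogen-driven cyclin D1, had 404, 433, 315 and 323 CPM in differentiating libraries 1 to 4, against 2288, 2419, 2366 and 2400.3 CPM in proliferating libraries 1 to 4. The groups were far apart, at a log2 fold change of -2.68 ± 0.10, adjusted p = 5.16e-10. Among the CDK inhibitors, Cdkn1c (p57) had 229, 224, 380.4 and 385 CPM in differentiating libraries 1 to 4, against 34.01, 32.5, 32.9 and 32.5 CPM in proliferating libraries 1 to 4. It was higher in every differentiating library, most in 3 and 4 (log2 fold change 3.20 ± 0.19, adjusted p = 2.39e-08). Cdkn1b (p27), the inhibitor long tied to oligodendrocyte cell cycle exit, had a log2 fold change of 0.24 ± 0.04, which turned to -0.27 with library totals alone. Cdkn1a (p21) and Cdkn2b (p15) fell, with log2 fold changes of -0.92 ± 0.15 and -2.75 ± 0.12.

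Genes of ribosome biogenesis and the MYC family were lower in differentiating cells as well. Of 29 tested members 27 fell and 2 rose, with a median of -0.99. Myc averaged 28.7 ± 1.87 CPM in differentiating and 129.7 ± 5.27 CPM in proliferating libraries (-2.18 ± 0.05) and Mycn averaged 3.06 ± 0.325 CPM in differentiating and 22.99 ± 0.971 CPM in proliferating libraries (-2.91 ± 0.08). Their relative Mycl went the other way, with 109, 100.4, 141 and 144 CPM in differentiating libraries 1 to 4, against 21.9, 20.01, 22.6 and 21.3 CPM in proliferating libraries 1 to 4 (log2 fold change 2.52 ± 0.12, adjusted p = 3e-09). Fbl, the methyltransferase fibrillarin of the nucleolus, averaged 93.6 ± 2.03 CPM in differentiating and 260.2 ± 5.55 CPM in proliferating libraries (-1.47 ± 0.04), and Odc1, which starts polyamine synthesis, was lower too (-2.07 ± 0.06).

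Lipid synthesis genes rose broadly. Of 29 tested genes of cholesterol synthesis and uptake 26 rose, 22 of them at least 2-fold, and 3 fell, with a median of 1.52. Hmgcs1, which makes the HMG-CoA that feeds the pathway, had 4332, 4531, 3425 and 3446 CPM in differentiating libraries 1 to 4, against 485, 509, 495 and 500.5 CPM in proliferating libraries 1 to 4. All 4 differentiating libraries were higher, and libraries 1 and 2 most (log2 fold change 2.98 ± 0.10, adjusted p = 1.55e-10).

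The members that fell handle lipid outside the cell or its export, though another exporter on the list, Abca1, rose (0.83 ± 0.16). Apoe, the lipid carrier apolipoprotein E, had 732, 643, 384 and 384 CPM in differentiating libraries 1 to 4, against 3361, 3095, 3439.6 and 3337 CPM in proliferating libraries 1 to 4 (log2 fold change -2.63 ± 0.20, adjusted p = 2.42e-07). Lpl, the lipase of lipoproteins, averaged 6.73 ± 0.844 CPM in differentiating and 35.4 ± 1.11 CPM in proliferating libraries (-2.38 ± 0.08), and the exporter Abcg1 was lower (-0.89 ± 0.11). Apoe and Lpl are also known from microglia, whose listed markers fell in these libraries too, and the part of those cells in the change was not tested. The CCAAT box occurred in 14 of 20 windows of called cholesterol genes (70.0%), against 37.97% of the windows of all tested genes.

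Of 31 tested genes of fatty acid and sphingolipid synthesis 28 rose and 3 fell, with a median of 1.29, and 5 fell with library totals alone. Gltp, a glycolipid transfer protein, had 1302, 1218, 1164 and 1171 CPM in differentiating libraries 1 to 4, against 225, 216, 236 and 224 CPM in proliferating libraries 1 to 4, without overlap (2.43 ± 0.05), and Elovl7, a fatty acid elongase, rose most at 3.43 ± 0.11. The largest fall was that of Cers6, a ceramide synthase for shorter acyl chains, at -1.72 ± 0.12.

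**Figure D3:**
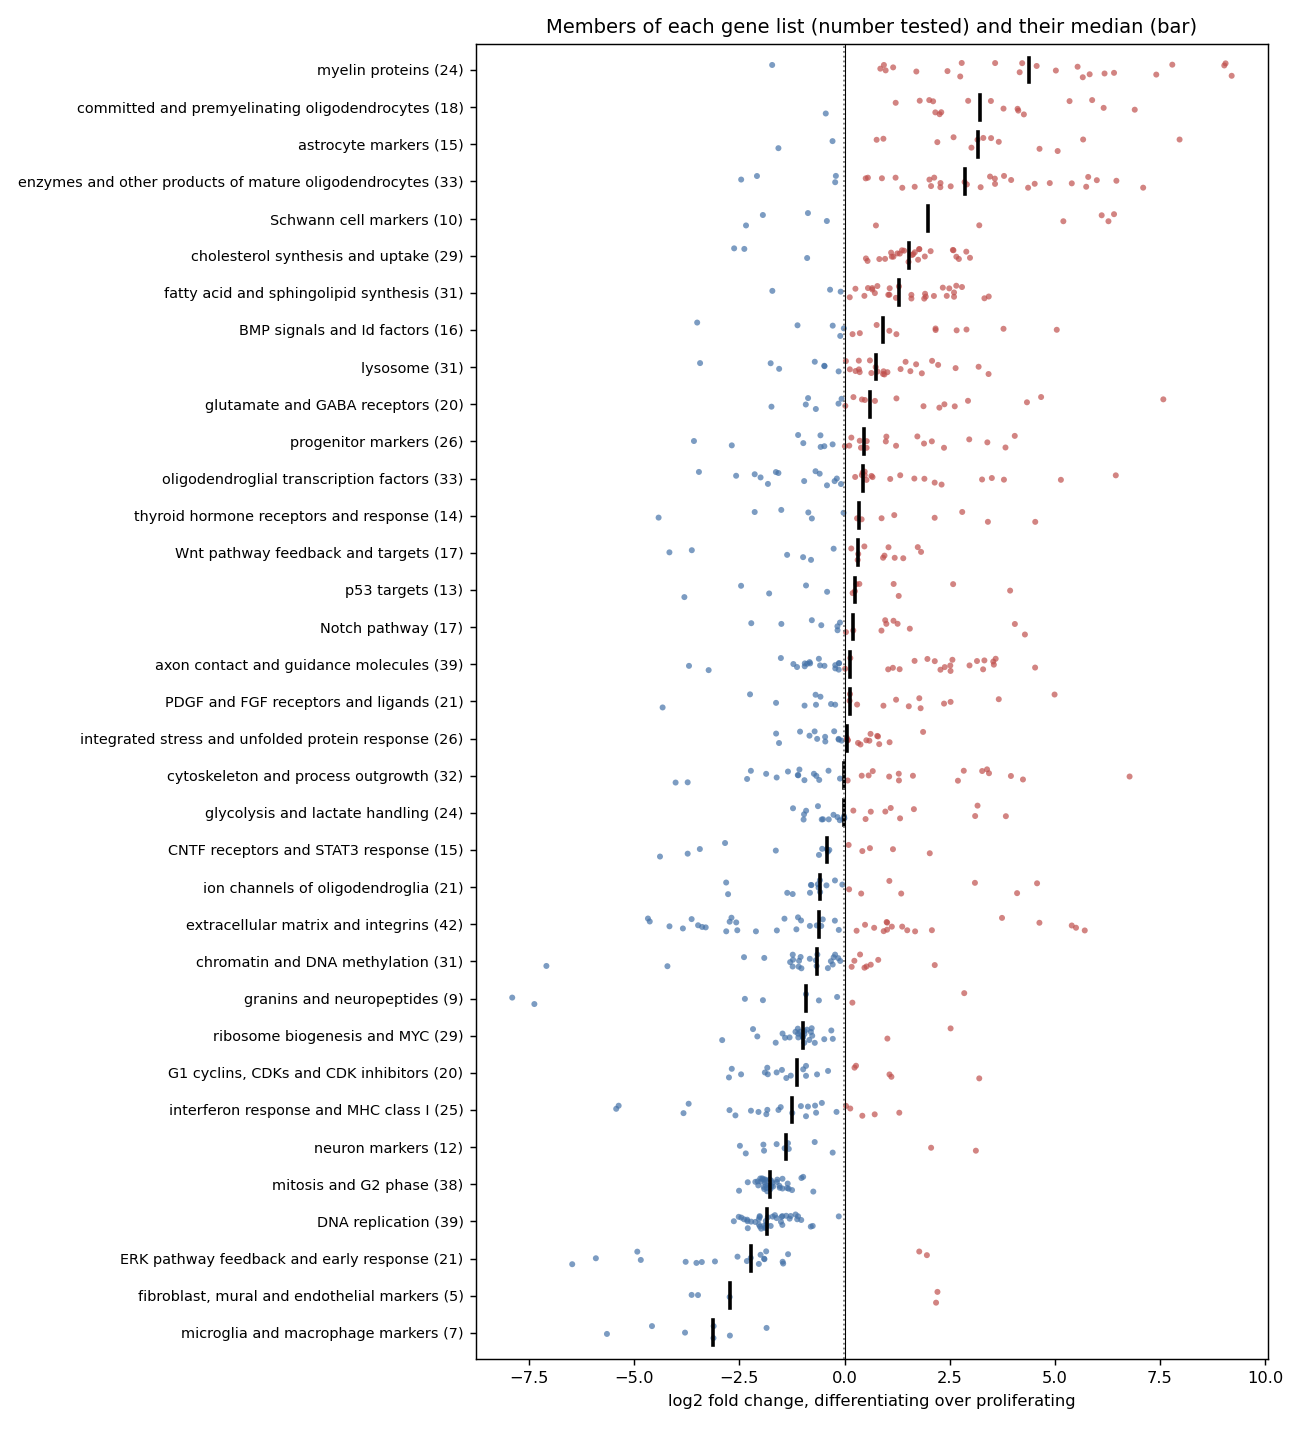
Log2 fold change of differentiating over proliferating cells for each tested member of 35 gene lists, 1 dot a gene, with the number tested in brackets and the median as a bar. Myelin, committed-stage, mature-product and lipid lists lie to the right, while microglia, ERK, replication and mitosis lists lie to the left, and the dotted line is the median of all tested genes.

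Genes that report on mitogen signalling fell. Of 21 tested members of the ERK feedback and early response list 19 fell, all at least 2-fold, and 2 rose, with a median of -2.23. Dusp6, a phosphatase that ERK induces against itself, had 46.96, 45.8, 45.5 and 47.7 CPM in differentiating libraries 1 to 4, against 486, 483, 492 and 495 CPM in proliferating libraries 1 to 4. The groups were wide apart with little spread (log2 fold change -3.39 ± 0.04, adjusted p = 1.61e-13). Dusp4, a second such phosphatase, averaged 8.25 ± 1.25 CPM in differentiating and 235 ± 4.73 CPM in proliferating libraries (-4.85 ± 0.09), and Etv5, an ETS factor downstream of FGF receptors, averaged 67.4 ± 2.30 CPM in differentiating and 254 ± 5.35 CPM in proliferating libraries (-1.91 ± 0.04). The 2 members that rose were Fos, an immediate early factor, with 99.4, 97.6, 57.2 and 58.5 CPM in differentiating libraries 1 to 4, against 20.95, 21.2, 20.01 and 18.7 CPM in proliferating libraries 1 to 4 (1.96 ± 0.18), and the FGF antagonist Il17rd (1.78 ± 0.18).

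Receptors for these mitogens moved apart from each other. Of 21 tested PDGF and FGF receptors, ligands and related genes 10 rose and 8 fell, with a median of 0.13 (-0.37 with library totals alone). These counts are near the shares of all tested genes, 41.5% higher and 43.3% lower. Fgfr2, the FGF receptor of myelinating oligodendrocytes, had 669.8, 674, 583 and 579 CPM in differentiating libraries 1 to 4, against 19.9, 19.4, 19.05 and 20.2 CPM in proliferating libraries 1 to 4. It was low in all proliferating libraries and high in all differentiating ones (log2 fold change 4.996 ± 0.07, adjusted p = 4.77e-13). Fgfr3 averaged 121 ± 5.36 CPM in differentiating and 9.53 ± 0.376 CPM in proliferating libraries (3.67 ± 0.05), while Fgfr1 averaged 319 ± 60.3 CPM in differentiating and 514 ± 13.5 CPM in proliferating libraries (-0.69 ± 0.11). Pdgfa, the ligand of Pdgfra, averaged 149 ± 10.9 CPM in differentiating and 26.00 ± 0.873 CPM in proliferating libraries (2.52 ± 0.06). Met, the hepatocyte growth factor receptor, fell most on the list (-4.33 ± 0.16).

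The medium of differentiating cells held a high level of thyroid hormone, and 14 genes of its receptors and response were tested. Of these 8 rose and 5 fell, with a median of 0.35 (-0.15 with library totals alone). Thrb, the beta receptor, had 139, 159, 147 and 145 CPM in differentiating libraries 1 to 4, against 5.77, 7.18, 6.39 and 6.13 CPM in proliferating libraries 1 to 4, with no overlap (log2 fold change 4.54 ± 0.07, adjusted p = 8.83e-13). Thra, the alpha receptor, averaged 821 ± 24.5 CPM in differentiating and 118 ± 1.24 CPM in proliferating libraries (2.80 ± 0.04). The corepressor Hr, a direct target of the hormone in rat brain, averaged 732 ± 29.1 CPM in differentiating and 68.8 ± 3.27 CPM in proliferating libraries (3.41 ± 0.05), and Klf9, a target factor in oligodendrocytes, averaged 69.4 ± 1.48 CPM in differentiating and 15.7 ± 0.373 CPM in proliferating libraries (2.14 ± 0.04). Dio3, which inactivates the hormone, went the other way with 0.450 ± 0.0805 CPM in differentiating and 9.64 ± 0.566 CPM in proliferating libraries (-4.42 ± 0.13).

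CNTF signals through a receptor complex of Cntfr, Lifr and Il6st to STAT3, and of 15 tested genes of this pathway 3 rose and 10 fell, with a median of -0.42. Lifr averaged 21.3 ± 2.06 CPM in differentiating and 5.19 ± 0.598 CPM in proliferating libraries (2.03 ± 0.10), while Cntfr averaged 16.5 ± 2.53 CPM in differentiating and 25.02 ± 1.69 CPM in proliferating libraries (-0.61 ± 0.10) and Stat3 averaged 196 ± 52.9 CPM in differentiating and 284 ± 8.16 CPM in proliferating libraries (-0.53 ± 0.15). With differentiating libraries 1 and 2 alone Stat3 stood at -0.20 and with 3 and 4 alone at -0.91, past the threshold in both. Among the members that fell, Timp1, an inhibitor of matrix proteases, had 3.32, 3.64, 2.998 and 3.38 CPM in differentiating libraries 1 to 4, against 70.6, 70.6, 72.1 and 67.5 CPM in proliferating libraries 1 to 4 (log2 fold change -4.39 ± 0.06, adjusted p = 4.77e-13), and Socs2, a feedback inhibitor, averaged 6.48 ± 2.28 CPM in differentiating and 45.3 ± 2.77 CPM in proliferating libraries (-2.84 ± 0.17).

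In the BMP list 10 of 16 tested members rose and 2 fell, with a median of 0.91, and with library totals alone 9 rose and 6 fell. Bmp4, a ligand that committed oligodendrocytes make, had 414, 386, 499.8 and 505 CPM in differentiating libraries 1 to 4, against 32.1, 33.2, 34.8 and 31.2 CPM in proliferating libraries 1 to 4 (log2 fold change 3.78 ± 0.10, adjusted p = 2.5e-11). Its secreted antagonist Nog rose beside it with 26.6 ± 3.88 CPM in differentiating and 0.781 ± 0.224 CPM in proliferating libraries (5.05 ± 0.17), whereas Fst, an activin and BMP antagonist, was lower (-3.50 ± 0.30) at levels of 0.0375 to 0.205 CPM in differentiating libraries, against 1.25 to 1.60 CPM in proliferating libraries. In the Notch list 9 of 17 rose and 5 fell, with a median of 0.21. With library totals alone 7 rose, 9 fell and the median was -0.29. Notch3, a receptor, rose by 4.29 ± 0.13, and its target repressors split, with Hes5 at 4.05 ± 0.26 and Hes1 at -2.22 ± 0.20. In the Wnt list 9 of 17 rose and 5 fell, with a median of 0.33 (-0.18 with library totals alone). Lef1, a factor and target of the pathway, averaged 1.36 ± 0.713 CPM in differentiating and 25.8 ± 1.56 CPM in proliferating libraries (-4.16 ± 0.22).

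Molecules at the contact with axons split. Of 39 tested members 19 rose, all at least 2-fold against 18.1% of all genes, and 14 fell, with a median of 0.14 (-0.37 with library totals alone). Sema4d, a membrane semaphorin of oligodendrocytes that repels axons, had 661, 615, 478 and 473 CPM in differentiating libraries 1 to 4, against 24.6, 23.2, 24.05 and 24.3 CPM in proliferating libraries 1 to 4 (log2 fold change 4.53 ± 0.12, adjusted p = 3.3e-11). Plxnb3, a semaphorin receptor, averaged 1494 ± 45.96 CPM in differentiating and 124 ± 8.38 CPM in proliferating libraries (3.59 ± 0.06), and Ephb1, an ephrin receptor, averaged 404 ± 12.2 CPM in differentiating and 40.3 ± 1.05 CPM in proliferating libraries (3.33 ± 0.04). The secreted Sema3a, which acts on growing axons and on progenitors, had 13.7, 16.5, 12.8 and 13.3 CPM in differentiating libraries 1 to 4, against 178, 189, 177 and 191 CPM in proliferating libraries 1 to 4 (log2 fold change -3.70 ± 0.07, adjusted p = 4.34e-12).

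Of 21 tested ion channel genes 6 rose and 11 fell, with a median of -0.58. Hcn2, a channel opened by hyperpolarisation that oligodendrocytes use in myelin sheath growth, had 382, 331, 330.5 and 316 CPM in differentiating libraries 1 to 4, against 13.6, 12.9, 15.8 and 14.6 CPM in proliferating libraries 1 to 4 (log2 fold change 4.58 ± 0.08, adjusted p = 2.07e-12). Kcna6, a voltage-gated potassium channel, averaged 41.7 ± 5.06 CPM in differentiating and 2.40 ± 0.609 CPM in proliferating libraries (4.10 ± 0.15). Of 20 tested glutamate and GABA receptor genes 12 rose and 4 fell, with a median of 0.60, and 7 fell with library totals alone. The largest rise was Grm7, a presynaptic type of metabotropic glutamate receptor, with 17.8, 16.6, 5.62 and 5.83 CPM in differentiating libraries 1 to 4, against 0.0645, 0.0334, 0.0420 and 0.0766 CPM in proliferating libraries 1 to 4. The AMPA receptor auxiliary subunit Cnih2 averaged 29.5 ± 2.93 CPM in differentiating and 98.5 ± 5.41 CPM in proliferating libraries (-1.74 ± 0.07).

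The cytoskeleton list split much as all tested genes did, with 15 of 32 tested members higher, 14 lower and a median of -0.02. Of all tested genes 41.5% were higher and 43.3% lower, with a median of -0.02 too. Map6d1, a stabiliser of microtubules, had 400.4, 408, 394 and 409 CPM in differentiating libraries 1 to 4, against 21.2, 21.04, 20.98 and 21.7 CPM in proliferating libraries 1 to 4 (log2 fold change 4.24 ± 0.04, adjusted p = 1.42e-13). Map1a, a microtubule-associated protein of mature processes, averaged 3018 ± 135 CPM in differentiating and 423 ± 16.4 CPM in proliferating libraries (2.84 ± 0.05). Moesin (Msn), which ties actin to the membrane at the edge of moving cells, had 45.8, 47.7, 38.2 and 38.8 CPM in differentiating libraries 1 to 4, against 682, 689, 688 and 709 CPM in proliferating libraries 1 to 4 (log2 fold change -4.02 ± 0.08, adjusted p = 2.99e-12).

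Of 42 tested matrix and integrin genes 17 rose and 24 fell, with a median of -0.61. Col11a2, a fibrillar collagen chain, averaged 685 ± 38.3 CPM in differentiating and 15.1 ± 0.594 CPM in proliferating libraries (5.51 ± 0.06) and Sparcl1, a matricellular protein, averaged 573 ± 119.6 CPM in differentiating and 10.9 ± 0.884 CPM in proliferating libraries (5.71 ± 0.16). Itga3, a laminin receptor chain, averaged 1.91 ± 0.333 CPM in differentiating and 48.2 ± 3.33 CPM in proliferating libraries (-4.68 ± 0.10). Of 24 listed granins and neuropeptide genes only 9 had a usable symbol and were tested. Of these 7 fell and 2 rose, 1 with library totals alone. Vgf, a secreted protein of regulated granules, had 3.76, 3.11, 1.62 and 2.25 CPM in differentiating libraries 1 to 4, against 672, 629, 702 and 664 CPM in proliferating libraries 1 to 4 (log2 fold change -7.90 ± 0.16, adjusted p = 4.14e-12). Scg2, secretogranin II, averaged 2.62 ± 0.419 CPM in differentiating and 433 ± 8.81 CPM in proliferating libraries (-7.38 ± 0.08).

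Chromatin genes fell on balance, with 20 of 31 tested members lower, 7 higher and a median of -0.65. With library totals alone 25 were lower and 2 higher. Dnmt1 and Uhrf1, both lower, are on the DNA replication list too. Hmga2, an architectural factor of embryonic and dividing progenitors, had 0.339, 0.450, 0.523 and 0.512 CPM in differentiating libraries 1 to 4, against 62.1, 60.5, 62.7 and 60.01 CPM in proliferating libraries 1 to 4 (log2 fold change -7.09 ± 0.08, adjusted p = 1.91e-13). Hmga1, its relative, averaged 51.6 ± 3.59 CPM in differentiating and 956 ± 65.1 CPM in proliferating libraries (-4.21 ± 0.07), and the maintenance methyltransferase Dnmt1 averaged 128 ± 9.04 CPM in differentiating and 479 ± 14.9 CPM in proliferating libraries (-1.91 ± 0.06). The DNA demethylating enzyme Tet1 rose, with 30.2 ± 4.98 CPM in differentiating and 6.77 ± 0.695 CPM in proliferating libraries (2.15 ± 0.13).

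Lysosomal genes rose in 22 of 31 tested cases and fell in 7, with a median of 0.74, and 12 fell with library totals alone. Tfeb, the factor that drives them, had 151, 127, 134 and 141 CPM in differentiating libraries 1 to 4, against 15.2, 13.9, 15.5 and 16.1 CPM in proliferating libraries 1 to 4 (log2 fold change 3.19 ± 0.07, adjusted p = 7.51e-12). Interferon response and MHC class I genes were lower in 18 of 25 cases and higher in 3, with a median of -1.24. Bst2, an antiviral membrane protein, averaged 1.26 ± 0.308 CPM in differentiating and 16.7 ± 0.449 CPM in proliferating libraries (-3.71 ± 0.13), and Psmb8, an immunoproteasome subunit, averaged 0.780 ± 0.0996 CPM in differentiating and 5.26 ± 0.294 CPM in proliferating libraries (-2.74 ± 0.13). The microglia markers fell in the same libraries, and their part in these falls was not tested. The glycolysis, p53 and stress response lists were mixed, with 10 higher and 10 lower of 24, 8 and 5 of 13, and 9 and 9 of 26. Beside them, 41.5% of all tested genes were higher and 43.3% lower. With library totals alone the glycolysis list had 7 higher and 15 lower, the p53 list had 4 higher and 9 lower, and the stress list 5 higher and 18 lower. Slc2a1, the glucose transporter of many cells, averaged 534 ± 25.3 CPM in differentiating and 37.4 ± 1.67 CPM in proliferating libraries (3.84 ± 0.05).

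Markers of other cell types also differed between the groups. All 7 tested microglia and macrophage markers, of 20 listed, were lower, with a median of -3.12. The other listed markers, among them Aif1, Itgam and Cx3cr1, had no usable symbol, so their levels are not known here. Csf1r, the receptor on which microglia depend, had 16.03, 15.2, 12.1 and 13.2 CPM in differentiating libraries 1 to 4, against 343, 331, 341 and 345 CPM in proliferating libraries 1 to 4 (log2 fold change -4.58 ± 0.08, adjusted p = 1.56e-12). Lyz2, a lysozyme of macrophages, had 20.1, 18.5, 8.23 and 9.36 CPM in differentiating libraries 1 to 4, against 724, 710.3, 728 and 726 CPM in proliferating libraries 1 to 4 (log2 fold change -5.65 ± 0.25, adjusted p = 2.01e-09), and Cd68, a lysosomal protein of phagocytes, averaged 6.42 ± 0.986 CPM in differentiating and 90.3 ± 3.12 CPM in proliferating libraries (-3.79 ± 0.08). No tested member of the list was at 0 in either group.

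Of 15 tested astrocyte markers 13 rose and 1 fell, with a median of 3.16, and 2 fell with library totals alone. Gfap, the intermediate filament of astrocytes, had 1489.6, 1421, 657 and 639 CPM in differentiating libraries 1 to 4, against 4.35, 3.87, 4.12 and 4.39 CPM in proliferating libraries 1 to 4. It was low in every proliferating library and far higher in every differentiating one (log2 fold change 7.97 ± 0.37, adjusted p = 3.16e-09). Sox9, a factor of astrocytes and immature glia, went the other way with 35.1 ± 12.97 CPM in differentiating and 106 ± 5.15 CPM in proliferating libraries (-1.57 ± 0.20), and the astrocyte connexin Gja1 averaged 78.9 ± 34.5 CPM in differentiating and 96.9 ± 3.97 CPM in proliferating libraries and did not pass the test (-0.29 ± 0.25, adjusted p = 0.297). It was past the threshold at -0.80 with library totals alone, at 0.20 with differentiating libraries 1 and 2 alone and at -0.98 with 3 and 4 alone. Of the listed astrocyte genes 4 are also on other lists used here, among them Fgfr3. The part of astrocytes in the changes was not tested.

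Of 12 tested neuron markers 10 fell and 2 rose, and the sums were close, at 911 to 1012 CPM in differentiating libraries, against 973 to 991 CPM in proliferating libraries. Of 5 tested fibroblast, mural and endothelial markers 3 fell and 2 rose, and the sums were 21.7 to 31.5 CPM in differentiating libraries, against 62.1 to 83.8 CPM in proliferating libraries. Of 10 tested Schwann cell markers 6 rose and 4 fell. Egr2, the factor that drives peripheral myelin, was lower (-2.34 ± 0.14).

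Among the 10 largest rises of genes with at least 5 CPM on average were Casr, AABR07019383.1, Gjc3, Mobp, Rpe65, Adgrg2, Mylk, Nipal4 and Gfap. Casr, the calcium-sensing receptor, had 153, 152, 95.6 and 95.7 CPM in differentiating libraries 1 to 4. Over the 4 proliferating libraries it had 4 counts in all, and the ratio of the scaled sums was 3991, with an exact 95% interval of 1558 to 14651 that covers counting error only. Adgrg2, an adhesion receptor, rested on 4 such counts too, with a ratio of 489.5 (191 to 1799). Rpe65, the retinoid isomerase known from the eye, averaged 86.7 ± 11.7 CPM in differentiating and 0.168 ± 0.0859 CPM in proliferating libraries (8.89 ± 0.19). Mylk, myosin light chain kinase, averaged 101 ± 4.61 CPM in differentiating and 0.235 ± 0.0859 CPM in proliferating libraries (8.67 ± 0.11), and Nipal4, a magnesium transporter, averaged 79.9 ± 6.16 CPM in differentiating and 0.312 ± 0.0937 CPM in proliferating libraries (8.01 ± 0.12).

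The 10 largest falls were Cd93, AABR07065531.3, Vgf, Scg2, Hmga2, Cd14, Aldh1a3, Anxa3, Calca and Plaur. Cd93, a receptor of endothelial and myeloid cells and of some progenitors, had 0.949, 1.65, 0.428 and 0.358 CPM in differentiating libraries 1 to 4, against 428, 459, 439 and 466 CPM in proliferating libraries 1 to 4 (log2 fold change -8.94 ± 0.20, adjusted p = 1.03e-11). Cd14, the lipopolysaccharide co-receptor of macrophages, averaged 0.461 ± 0.284 CPM in differentiating and 66.6 ± 3.60 CPM in proliferating libraries (-7.06 ± 0.17). Aldh1a3, which makes retinoic acid, had 0.0512 to 0.638 CPM in differentiating libraries, against 48.98 to 52.2 CPM in proliferating libraries (-6.98 ± 0.19), and Calca, the gene of calcitonin and CGRP, averaged 0.460 ± 0.118 CPM in differentiating and 49.8 ± 1.77 CPM in proliferating libraries (-6.70 ± 0.10). Plaur, the urokinase receptor, and Anxa3, an annexin, had log2 fold changes of -6.48 ± 0.14 and -6.86 ± 0.06. The part of microglia and macrophages in the falls of Cd93, Cd14 and Plaur was not tested.

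Differentiating libraries 1 and 2 differed from 3 and 4 by more than replicates of proliferating cells did. The chi-square over degrees of freedom was 8.45 between 1 and 2, 1.77 between 3 and 4, 29.3 to 37.1 across the pairs and 2.15 to 4.48 among proliferating libraries. Of 8392 genes with at least 10 CPM on average in differentiating libraries, 56 differed at least 2-fold between the pair means, 25 of them higher in 1 and 2. None differed as much within a pair. No label names what unites a pair, and the values are a description with no test.

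Gfap stood at 1489.6 and 1421 CPM in libraries 1 and 2, against 657 and 639.5 CPM in 3 and 4, and the astrocyte list summed to 3574 and 3460.2 CPM against 2095 and 2091 CPM. The cholesterol list summed to 26484 and 26055 CPM in libraries 1 and 2, against 18907 and 19041 CPM in 3 and 4. The fatty acid and sphingolipid list showed 37366 and 37195 CPM, against 26777 and 26888 CPM. The myelin list differed less, with 124628 and 124197 CPM against 110869 and 112028 CPM. Bcas1, Nkx2-2 and Cdkn1c were higher in libraries 3 and 4. Each of these genes and sums kept its direction against proliferating cells in either pair alone.

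**Figure D4:**
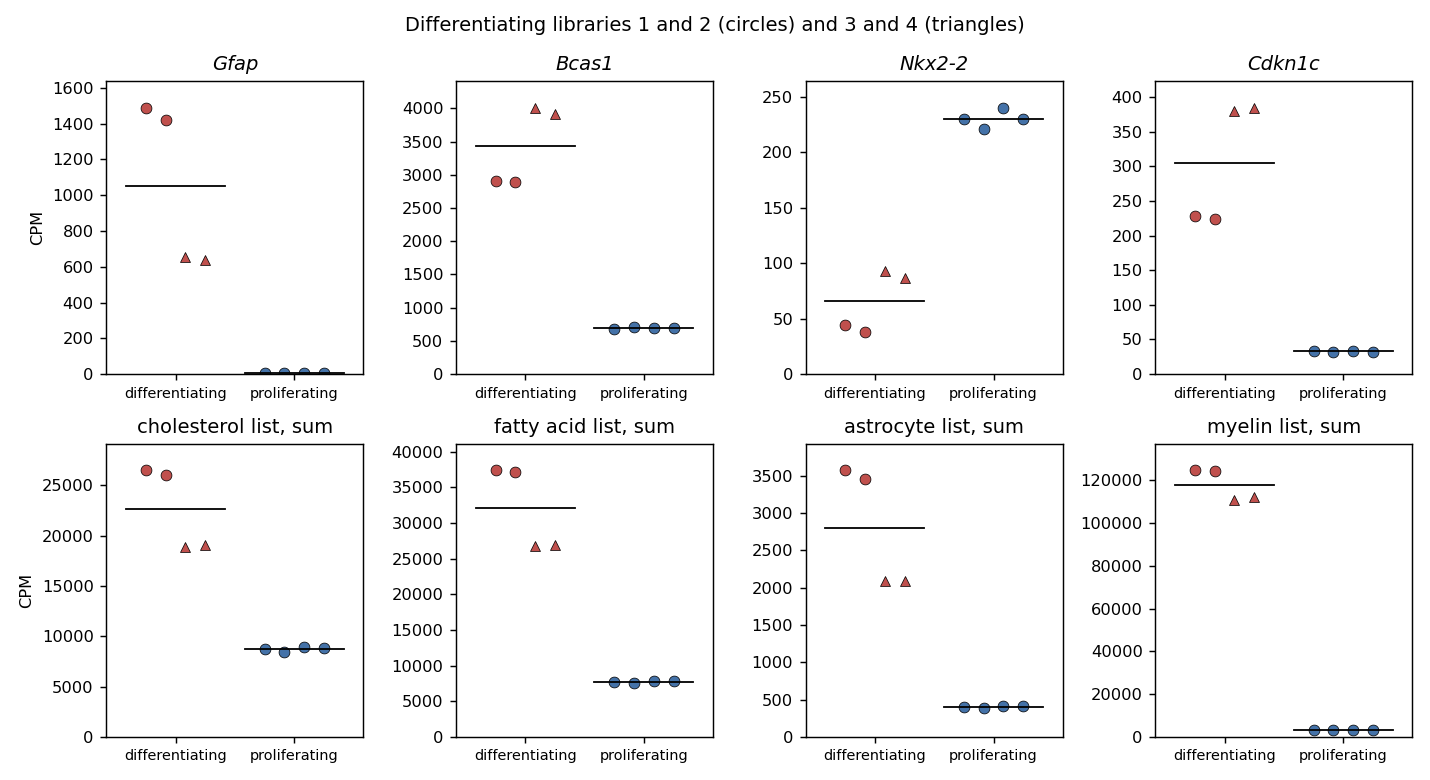
CPM of 4 genes and summed CPM of 4 lists in each library, with differentiating libraries 1 and 2 as circles and 3 and 4 as triangles, and the group mean as a bar. Gfap and the lipid and astrocyte sums are higher in libraries 1 and 2, Bcas1, Nkx2-2 and Cdkn1c in 3 and 4, and the proliferating libraries lie close together.

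The response of primary cells was set against that of CG4 cells, in a fit of 15 libraries. CG4 cells gave 4 libraries carrying a GFP vector, differentiated for 3 days, and 3 wild-type proliferating libraries. The difference of the responses passed the test for 9146 of 13207 genes (69.3%). The CG4 groups differ in the vector and in read length (150 and 100 bases), which cannot be told apart from their differentiation. Mbp rose by 7.75 ± 0.31 in primary cells and by 3.93 ± 0.29 in CG4 cells on the log2 scale, a difference of 3.82 ± 0.34 (adjusted p = 1.62e-07). Mobp also rose more in primary cells, by 4.01, whereas Mog rose less, with a difference of -1.61 (adjusted p = 0.00187). Both started close to the floor in proliferating CG4 cells, Mobp at 0.153 to 0.470 CPM and Mog at 0.306 to 1.34 CPM. Mog averaged 12.6 CPM in proliferating primary cells. In differentiating cells it averaged 218 CPM in primary and 39.2 CPM in CG4 libraries, so its level was higher in primary cells. For Mag and Ccnd1 the difference did not pass (1.17 and -0.29, adjusted p = 0.123 and 0.422). Mag passed without CG4 proliferating library 1 (1.66, adjusted p = 0.00594) and stood at 0.04 without library 3, where Mog stood at -2.45, and Ccnd1 passed without library 2 (-0.75, adjusted p = 0.00386).

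Zfp488 rose by 3.46 ± 0.16 in primary cells and stood at -0.66 ± 0.16 in CG4 cells (difference 4.12, adjusted p = 9.05e-10). Nkx2-2 had the opposite pair of signs, -1.86 ± 0.32 in primary cells and 2.04 ± 0.36 in CG4 cells (difference -3.90, adjusted p = 4.34e-06). Myrf rose in both, by 3.75 in primary and 1.54 in CG4 cells, and so did Sox10, by 1.85 in primary and 1.01 in CG4 cells. Pdgfra fell in both, with -0.62 in primary cells and -1.98 in CG4 cells, and Mki67 fell with -2.003 in primary and -3.09 in CG4 cells. With TMM scaling, but not with library totals alone, Olig1 and Olig2 were slightly higher in differentiating primary cells, and they were lower in differentiating CG4 cells (1.84 and 0.87 for the differences).

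**Figure D5:**
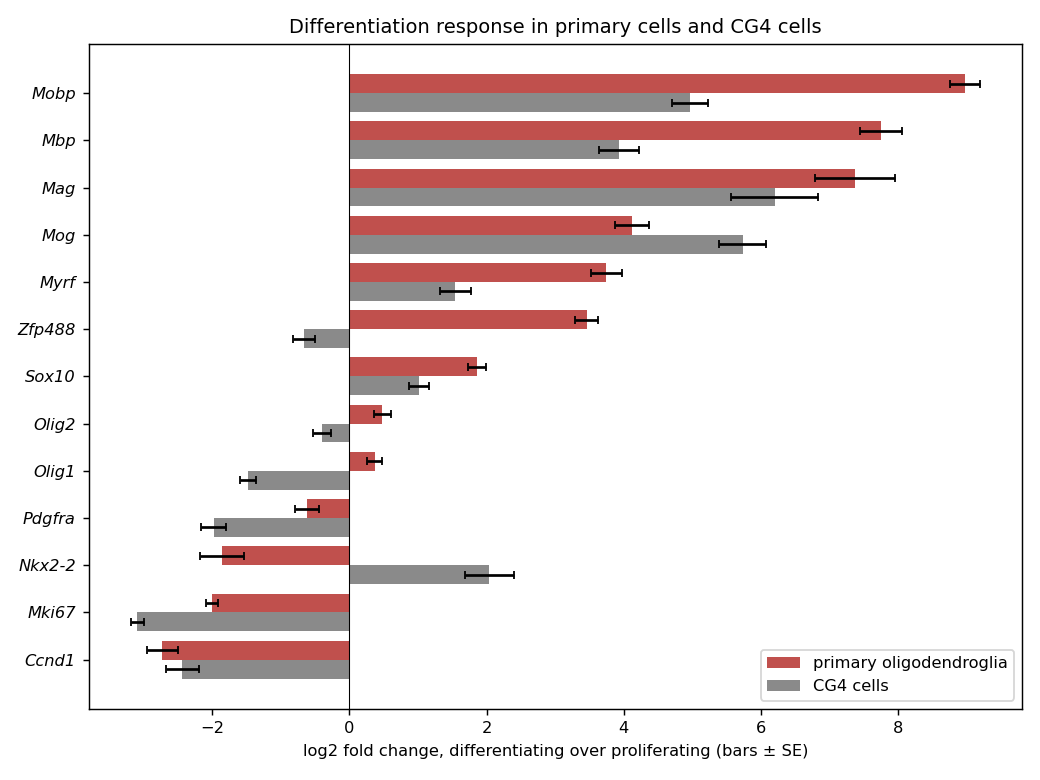
Log2 fold change of differentiating over proliferating cells with its SE for 13 genes, primary cells above CG4 cells, from 1 fit of 15 libraries. Zfp488 and Nkx2-2 point in opposite directions in the cell types, and Mbp and Mobp rise more in primary cells.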

How the data were processed

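Per the submitters' processing notes, reads were handled with Trimmomatic 0.36, STAR 2.5.2b and featureCounts of Subread 1.5.2 on rn6, and the authors deposited raw counts per gene, 1 file a library. Strand setting, annotation release and handling of multi-mapping reads were not given in the sources used here. Genes that overlap, lie antisense or have close copies are therefore uncertain. Symbols came by ID from the authors' 2 deposited tables on differentiating CG4 cells, so genes missing there have no name here, whatever their level in primary cells. The tables name 12432 of 15219 listed genes and 67 of these share a symbol. Genes without a usable symbol were tested but not named.

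From the counts, edgeR 4.0.16 in R 4.3.3 gave the quasi-likelihood test, with TMM scaling, filterByExpr and Benjamini-Hochberg adjustment over all genes tested, two-sided. The 2909 genes left out had low counts. CG4 differences are an interaction term in a fit of 15 libraries. CPM use TMM-scaled totals. DESeq2 1.42.0 was an alternative. The procedure was tested on simulated data in which a small part of the genes changed, equally up and down. Such data do not test the scaling where 84.8% of genes were called. The titles call the libraries biological replicates, and nothing says whether they came from separate cultures or animals, so p-values measure the spread between these libraries. Depth was at least 20063345 counts a library, and the exact intervals cover counting error only.

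The members, the 35 lists (962 entries, of which 803 were tested) and the rule for named genes were chosen with earlier results of these data known. The rule takes a panel of stage genes, the 10 largest rises and falls with at least 5 CPM and groups that do not overlap, and, in each list, the 4 called members with the smallest adjusted p with its largest rise and fall, and the text gives a part, since some of these genes are not reported here. Genes named after their values were seen are Abcg1, Anln, Cdkn1a, Cdt1, Cenpf, Cldn11, Cntfr, Fgfr1, Gal3st1, Gja1, Hes5, Il17rd, Myt1, Neu4, St18, Stat3, Tf and Ugt8.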

Additional observations from a re-analysis of the deposited data

Results flagged for a closer look

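The differentiation response of primary cells and that of CG4 cells differed in the interaction test for 11 of the 13 panel genes given, where 69.3% of all tested genes differed. On the log2 scale the difference, primary minus CG4, was 3.82 for Mbp, 4.01 for Mobp and -1.61 for Mog. Mobp and Mog were close to the floor in proliferating CG4 cells. It was 2.203 for Myrf, 0.84 for Sox10, 4.12 for Zfp488 and -3.90 for Nkx2-2. It was 1.84 for Olig1, 0.87 for Olig2, 1.36 for Pdgfra and 1.09 for Mki67. The CG4 groups differ in vector and read length, and the part of these was not tested. These differences were not fitted with library totals alone.

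In 11 of 270 groups of 4 libraries, 1 library lay apart from the other 3 by Dixon's test at its 95% critical value, and chance flags about 1 in 20 groups. In differentiating cells these were library 2 for Cd82 (11.7 CPM), Gal3st1 (280.1 CPM) and Mcm3 (27.4 CPM), library 3 for Cdt1 (14.0 CPM) and library 1 for Olig2 (1154 CPM). In proliferating cells library 1 lay apart for Cdkn1b (123 CPM), and library 2 for Col11a2 (14.2 CPM) and Stat3 (271 CPM). Library 3 lay apart for Cdt1 (80.1 CPM), Fst (1.60 CPM) and Mycn (24.4 CPM).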

How the results depend on the processing

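The 10439 calls stood at 10212 to 10819 with RLE size factors, library totals alone, DESeq2, the replicate block, counts thinned to equal depth, summed close pairs and either close pair alone, at 11057 with no filter on low counts and at 8632 with a mean of at least 5 CPM. Leaving out each library in turn gave 10186 to 10448 calls, 5011 to 5187 higher and 5175 to 5286 lower. With library totals alone 3005 genes were higher, and at a log2 fold change of at least 1 there were 4736 calls, 2232 higher and 2504 lower. The replicate block gave 10413 calls. Same-numbered libraries deviated together with correlations of -0.07 to 0.15, and differently numbered ones with -0.15 to 0.13. The split between the close pairs is large in these deviations, so the correlations cannot decide whether the numbers pair the libraries. The interaction calls numbered 9146, and fewer alternatives were run for them. They stood at 8606 with summed close pairs, 9485 with DESeq2, 9326 without the low-count filter and 9157 with RLE scaling. With each library left out they stood at 8789 to 9545. The interaction was not fitted with library totals alone or with counts thinned to equal depth. How far its smaller differences depend on that scaling was therefore not tested.

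Of 2422 values of the 135 named genes under an alternative, 2408 kept direction and side of the threshold. Direction turned with library totals alone for Cdkn1b (-0.27), Cspg4 (-0.34), Olig1 (-0.09) and Ptprz1 (-0.49), and Olig2 was no longer called there (0.02). Ptprz1, not called, also turned with no filter (-0.0045), a mean of at least 5 CPM (-0.0167) and libraries 1 and 2 alone (-0.0185), and ranged over -0.0127 to 0.0556 with 1 library left out. Gja1, not called, was 0.20 with differentiating libraries 1 and 2 alone. The cause was not tested beyond the shift of the median that library totals bring. Of 1260 list counts 27 moved by over 1.5 times, 15 of them with library totals alone. Genes at a few counts, such as Casr, and genes with no usable symbol limit what the lists show.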
